A study of Mus musculus with 38 samples.

Results

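The genes described here are 34 genes of the unfolded protein response and of protein folding in the endoplasmic reticulum (ER), chosen by name. They were chosen with earlier results of these data known, so shares of the list set beside all genes are not free of that choice. All 34 were matched by symbol to an Ensembl gene ID in each of 3 count tables, which list 55421 IDs (1 table) or 55487 IDs (2 tables). The symbol Ddit3 has 2 IDs that overlap on the same strand, and the one with more counts was used. Manf, Hsp90b1, Pdia4, Syvn1, Eif2ak3, Atf6 and Sesn2 also overlap another annotated gene on the same strand, and the sources used here do not say how reads shared by such genes were counted. The 34 genes comprise 27 ER genes and 7 genes of the ATF4 arm, and the sets were kept apart. The ER genes are 11 chaperones and co-chaperones, 4 protein disulfide isomerases, 4 genes of ER-associated degradation, 4 genes of the translocon through which new proteins enter the ER, and 4 genes of the stress sensors and their factors.

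RNA was sequenced in bulk from 38 libraries of organoids (cell clusters cultured in Matrigel, a basement membrane extract), each line established from a single mouse lung adenocarcinoma. All 8 lines carried p53frt and Rosa-FSF-CreERT2 on a mixed 129/B6 background, so that the vehicle libraries also came from p53-targeted tumour cells with a tamoxifen-activated Cre recombinase. Lines 1027B, 1027D and 1292B carried Foxa1flox and Foxa2flox, lines 1552A, 1552B and 1552C carried Foxa1flox alone, and lines 1267B and 1526C carried Foxa2flox alone. The treatment was 4-hydroxytamoxifen (4-OHT) at 2 uM, or ethanol as vehicle, over 72 hours, which gave 5 vehicle and 5 4-OHT libraries of double-floxed lines, 6 and 6 of Foxa1-floxed lines, and 4 and 4 of Foxa2-floxed lines. The labels give 21 days after tamoxifen for crosslinked cells, and no time of collection for RNA. A further 8 libraries came from line 1027B that carried shScramble (a scrambled hairpin) or shNKX2-1 (a hairpin to knock down Nkx2-1), each with vehicle or 4-OHT and 2 libraries per group. No line lacked floxed Foxa1 and Foxa2, so 4-OHT, Cre activity and loss of the floxed genes cannot be told apart. Foxa1 and Foxa2 are forkhead transcription factors of lung and gut epithelium, and Nkx2-1 is the lineage factor of lung epithelium.

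Secreted and membrane proteins are folded in the ER by chaperones such as Hspa5 (BiP), and their disulfide bonds are formed by protein disulfide isomerases. When unfolded proteins accumulate, the sensors Ern1 (IRE1), Eif2ak3 (PERK) and Atf6 raise the transcription of chaperones, degradation factors and translocon subunits, through spliced Xbp1 and cleaved Atf6. The PERK branch acts through Atf4, a factor that amino acid shortage, haem shortage and viral RNA also switch on through other kinases. Lung secretory and alveolar cells rely on this machinery to make surfactant proteins and mucins.

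The genes differ in the promoter elements through which these factors are known to act, and the elements are shown because they divide the list. Of the 34 genes, 30 had a promoter in the RefSeq table for GRCm38.p6 (250 bases before to 50 bases after the start), and Manf, Hyou1, Atf6 and Sec61a1 had none there. The ER stress response element (ERSE, CCAAT and CCACG separated by 9 bases, searched on both strands) was in 8 of 23 ER promoters (34.78%) and in 0.12% of 32851 promoters of the same length. The following are written 5′ to 3′ on the strand of the gene, with the element in capitals, and an element on the other strand reads as CGTGG and ATTGG separated by 9 bases. Hspa5 is given by its element alone, since that lies within the first exon of a longer annotated transcript.
Hspa5 (BiP, the main ER chaperone), chr2:34772025-34772043, plus strand: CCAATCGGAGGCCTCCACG
Hsp90b1 (GRP94, an ER chaperone), with 2 elements, chr10:86705513-86705676, minus strand: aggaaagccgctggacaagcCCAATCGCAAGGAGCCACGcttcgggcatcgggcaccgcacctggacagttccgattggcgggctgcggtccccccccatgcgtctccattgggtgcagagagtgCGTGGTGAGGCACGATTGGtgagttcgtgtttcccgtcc
Calr (calreticulin), chr8:84847055-84847113, minus strand: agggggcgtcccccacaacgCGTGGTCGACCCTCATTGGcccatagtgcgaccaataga
Canx (calnexin), chr11:50325780-50325838, minus strand: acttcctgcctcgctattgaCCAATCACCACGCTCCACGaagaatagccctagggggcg
Pdia6 (a disulfide isomerase), chr12:17266471-17266529, plus strand: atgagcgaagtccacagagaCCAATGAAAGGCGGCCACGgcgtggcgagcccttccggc
Dnajc3 (a co-chaperone of BiP), chr14:118937807-118937865, plus strand: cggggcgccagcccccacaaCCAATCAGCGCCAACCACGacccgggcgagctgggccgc
Creld2 (an ER protein induced by stress), chr15:88819500-88819558, plus strand: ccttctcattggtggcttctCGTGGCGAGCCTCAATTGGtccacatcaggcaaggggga
Syvn1 (the ubiquitin ligase of ER-associated degradation), chr19:6046512-6046570, plus strand: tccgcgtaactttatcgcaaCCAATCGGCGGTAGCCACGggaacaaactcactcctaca

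The composite element ERSE-II (ATTGG and CCACG separated by 1 base) was in the promoters of Dnajb11 and Herpud1 (8.7% of 23, against 0.04% of all promoters). The element through which Atf4 acts with a C/EBP partner (CARE, TGATGNAA) was in 3 of 7 promoters of the ATF4 arm, those of Asns, Chac1 and Trib3 (42.86%, against 3.97% of all promoters), and in 1 ER promoter, that of Herpud1. The XBP1 core GACGTG was in 4 of 23 ER promoters (Hspa5, P4hb, Pdia6 and Ssr1) and in that of Ddit3, where 6.38% of all promoters held it. Herpud1, a scaffold of ER-associated degradation, is shown because its promoter held both a CARE and an ERSE-II, in that order, and Chac1 because its CARE stood alone.
Herpud1, chr8:94386297-94386407, plus strand: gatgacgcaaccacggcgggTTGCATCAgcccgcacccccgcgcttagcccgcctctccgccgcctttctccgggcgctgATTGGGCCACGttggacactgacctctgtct
Chac1, chr2:119351029-119351076, plus strand: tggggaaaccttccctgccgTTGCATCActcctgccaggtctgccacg
A match describes these letters in this window and shows no binding.

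Before the results, the libraries were checked against their labels. Foxa1 was lower with 4-OHT in double-floxed (log2 change -1.80, adjusted p = 0.0284, edgeR with Benjamini-Hochberg adjustment) and Foxa1-floxed organoids (-1.92, adjusted p = 6.08e-07), and Foxa2 was lower in double-floxed (-4.49, adjusted p = 0.00151) and Foxa2-floxed organoids (-5.11, adjusted p = 3.55e-09). In the hairpin libraries Foxa2 was lower with 4-OHT under both hairpins (-5.09 and -6.04, adjusted p = 0.00227 and 0.00175 in edgeR), while Foxa1 did not pass (-0.49 and -0.56, adjusted p = 0.469 and 0.236), and whole-gene counts do not separate deleted from remaining exons. Nkx2-1 did not pass between the hairpins with vehicle (-0.44, adjusted p = 0.755 in edgeR) or with 4-OHT (-0.98, adjusted p = 0.0763), so those libraries are called below the libraries labelled as carrying the Nkx2-1 hairpin. Total counts ran from 13589826 to 33197038. Mitochondrial transcripts held 1.09 to 4.30% of counts in 37 libraries and 11.7% in replicate 2 of the Nkx2-1 hairpin with 4-OHT. The epithelial markers Epcam (235 to 804 CPM, counts scaled to library size) and Nkx2-1 (86.8 to 442 CPM) were present in every library. The fibroblast marker Lum was at 0 in 38 of 38 libraries, the leukocyte marker Adgre1 at 0 in 36, the leukocyte marker Cd68 was at 2.71 to 42.8 CPM, and the summed fibroblast and endothelial markers reached at most 5.09 and 7.43 CPM.

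Replicate 4 of the double-floxed organoids correlated weakly with the other repeat of its labelled line. It is labelled as line 1027B, as is replicate 1, and centred log2 values of these repeats correlated at 0.14 with vehicle and -0.03 with 4-OHT. Replicate 4 correlated at 0.05 and -0.02 with replicate 3 of line 1292B, whereas the repeats of line 1027D correlated at 0.42 and 0.32. With libraries of line 1027D it correlated at -0.59 to -0.45. Over all pairs of different lines with the same treatment the values ran from -0.59 to 0.05, with a median of -0.38. The label of replicate 4 is thus not shown to be wrong. The vehicle and 4-OHT libraries that share a line and the prefix number of their titles, which carry the same replicate number here, correlated at 0.57 to 0.77 in all 5 pairs. Double-floxed results are therefore also given without replicate 4, an alternative chosen after seeing the data, and with each such pair as a block. The weak correlation does not tell which of replicates 1 and 4 stands apart, and replicate 1 was not left out of both groups together.

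In vehicle libraries the most abundant of the genes, per kilobase of exon, were the disulfide isomerase P4hb and the chaperones Calr and Hspa5. Values were scaled within each table, so ranges over tables also hold differences between tables. Over the 15 organoid vehicle libraries the median level was 567.9 CPM per kilobase for P4hb, 414 for Calr, 357 for Hspa5, 314 for Pdia3 and 272 for Hsp90b1. The sensors stood at the other end, with medians of 11.9 for Atf6, 11.8 for Ern1 and 8.53 CPM per kilobase for Eif2ak3. Their ranges overlapped (8.79 to 25.8, 4.63 to 18.2 and 5.42 to 12.99), so these 3 neighbours are not separated by their spread. Atf4 ranked sixth of the 34 genes at 201 CPM per kilobase, above Canx at 123. Hyou1, a nucleotide exchange factor for BiP, varied least over the vehicle libraries, its highest value being 1.58 times its lowest. Ddit3 (CHOP), a factor of the ATF4 arm, varied most, with a highest value 26.1 times its lowest, in counts that its overlapping ID may share.

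The 27 ER genes together took a smaller share of all counts with 4-OHT than with vehicle in each of the 8 lines. This sum follows the abundant genes most, P4hb, Hspa5, Calr, Hsp90b1 and Pdia3, with 841254 to 1331324 counts each over all libraries. The next, Canx, had 459966. The mean share in a line's 4-OHT libraries over that in its vehicle libraries was 0.620 in line 1027B, 0.873 in 1027D and 0.756 in 1292B, the double-floxed lines. It was 0.749, 0.967 and 0.939 in the Foxa1-floxed lines 1552A, 1552B and 1552C, and 0.790 and 0.869 in the Foxa2-floxed lines 1267B and 1526C. In line 1027B the share was 1.48% with vehicle and 0.778% with 4-OHT in replicate 1, and 1.065 and 0.80% in replicate 4. The share itself ran from 0.781 to 1.48% in double-floxed vehicle libraries and from 0.671 to 0.80% with 4-OHT, and replicate 1 with vehicle held the 1.48%. These ranges overlapped at their edge, and in the single-floxed groups they overlapped more widely (0.821 to 1.33% against 0.776 to 1.07% for Foxa1, 0.912 to 1.33% against 0.794 to 1.18% for Foxa2). The 7 genes of the ATF4 arm held far less, 0.0271 to 0.179% over all libraries. Their ratio of 4-OHT to vehicle was below 1 in 7 of 8 lines, from 0.543 in line 1526C to 1.06 in line 1267B. This sum follows Atf4 and Asns most, with 386519 and 186300 counts over all libraries, beside 26906 to 60485 for each other gene. It therefore does not show that each gene of the arm fell. In bulk RNA, fewer cells of a type and less RNA per cell cannot be told apart.

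**Figure D1:**
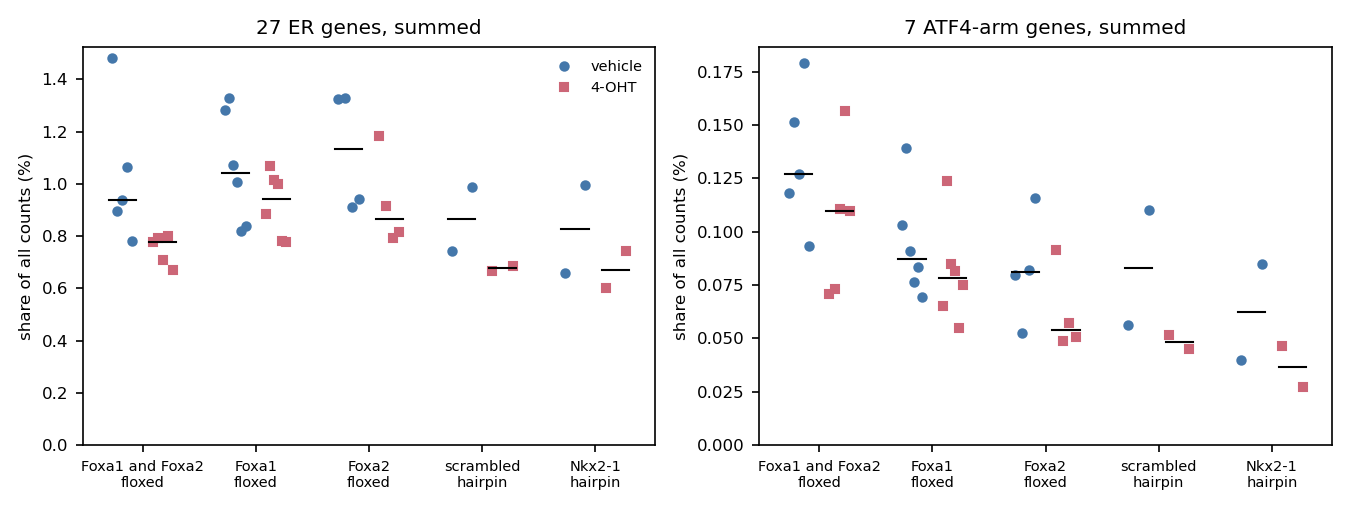
Share of all counts (%) held by the 27 ER genes (left) and the 7 genes of the ATF4 arm (right), 1 point per library, by genotype or hairpin and treatment, with black lines at the group medians. The 5 double-floxed 4-OHT libraries lie between 0.671 and 0.80% for the ER genes, and the vehicle libraries between 0.781 and 1.48%.

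In double-floxed organoids 3 of the 34 genes fell with 4-OHT and none rose. Pdia4 (a disulfide isomerase, ERp72), Sec61a1 (the pore of the translocon) and Ern1 (the sensor kinase and nuclease IRE1) fell 1.55-fold, 1.60-fold and 1.68-fold. Over all 15198 genes tested, 3.90% were called in either direction and 1.91% were called lower, at a Benjamini-Hochberg adjusted p under 0.05 in edgeR's quasi-likelihood test with organoid line as a block. Of the list 8.82% was called, all lower. Of the 27 ER genes 25 had a log2 change below 0, with a median of -0.50, beside a median of 0.02 over all genes tested, 47.8% of which were below 0. At an unadjusted p under 0.05 in edgeR, 16 of the 34 genes passed, all ER genes, beside 20.3% of all genes tested. The summed level of 4 epithelial markers (Epcam, Krt8, Krt18 and Cdh1) moved with treatment, from a median of 5485 CPM (4193 to 7898) with vehicle to 10681 CPM (5293 to 13612) with 4-OHT in double-floxed organoids, and its part in the results was not tested.

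Pdia4 (chromosome 6, 47796141 to 47813430 on the minus strand, GRCm38) had 364.5, 259, 304, 317 and 269 CPM in vehicle replicates 1 to 5, and 198, 167, 174, 254 and 184 CPM in 4-OHT replicates 1 to 5. Every 4-OHT library lay below every vehicle library. The log2 change was -0.63 (SE 0.13, 95% interval -0.92 to -0.34, adjusted p = 0.0329 in edgeR). Sec61a1 (chromosome 6, 88503579 to 88518905 on the minus strand) had 560.1, 342, 419, 579 and 241 CPM with vehicle and 295, 193, 269, 346 and 207 CPM with 4-OHT. The groups overlapped, because replicate 5 with vehicle was below 3 of the 4-OHT libraries, but the 4-OHT library was the lower in all 5 pairs of a line and title prefix. The log2 change of Sec61a1 was -0.68 (SE 0.15, adjusted p = 0.0426 in edgeR). Ern1 (chromosome 11, 106394650 to 106487852 on the minus strand) had 118, 98.3, 54.8, 105 and 105 CPM with vehicle and 49.7, 48.2, 40.2, 65.8 and 76.5 CPM with 4-OHT. Here too the 4-OHT library was the lower in all 5 pairs, and the 54.8 CPM of vehicle replicate 3, from line 1292B, made the groups overlap. The log2 change of Ern1 was -0.75 (SE 0.17, adjusted p = 0.0488 in edgeR).

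**Figure D2:**
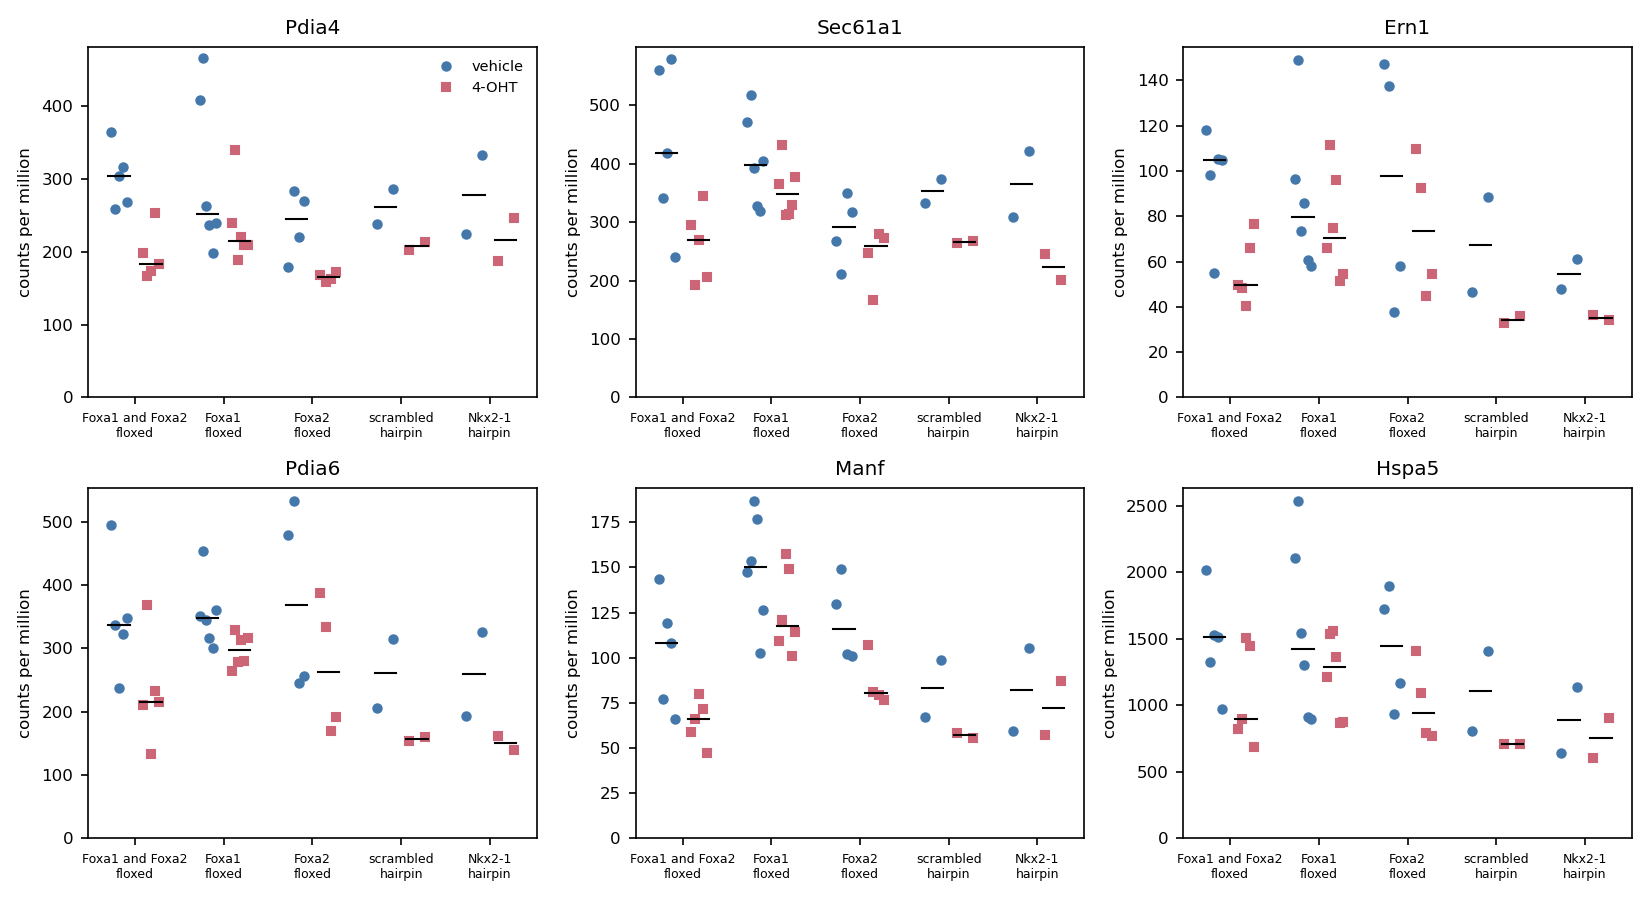
Normalised level (CPM) of the 5 genes that fell in an organoid comparison and of Hspa5, 1 point per library, with black lines at the group medians. Pdia4 is the only one of the 5 with no overlap between double-floxed vehicle and 4-OHT libraries (259 to 364.5 against 167 to 254 CPM).

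These calls lie near the threshold. Pdia4 passed in 5 of 20 alternative settings, Sec61a1 in 5 of 20 and Ern1 in 4 of 20, with adjusted p-values of 9.19e-05 to 0.315, 5.15e-04 to 0.291 and 0.00421 to 0.266. The direction was the same in all of them. With each such pair as a replicate block, 5 genes fell (Ern1, Ssr1, Pdia4, Sec61a1 and Manf), with 11.7% of all genes called, and without replicate 4 in both groups 1 gene fell (Pdia4), with 3.95% called. Leaving out 1 library ended all 3 calls in 7 of 10 cases and left Pdia4, Sec61a1 or Ern1 alone called without 4-OHT replicate 4, vehicle replicate 5 and 4-OHT replicate 5, respectively. Over these 10 cases 1.45 to 3.8% of all genes were called, beside 3.90% with all libraries. Leaving out any 1 line left none called, in fits where few of all genes passed. These shares were 0.755% without line 1027B, 0% without 1027D and 1.79% without 1292B. Summing counts per line and treatment, which makes the line the unit, also left none of the 34 called, with 3.45% of all genes called.

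Among the chaperones none was called, and 10 of 11 had a log2 change below 0, with a median of -0.27. Hsp90b1 had 1615, 1096, 1035, 1097 and 1073 CPM with vehicle and 688, 939, 644, 830.2 and 705 CPM with 4-OHT, without overlap (log2 change -0.63, SE 0.17, adjusted p = 0.0792 in edgeR). Hyou1 also had no overlap, with 204.9 CPM in the lowest vehicle library and 204.6 CPM in the highest 4-OHT library. Hspa5 had a log2 change of -0.48 (SE 0.22), with 971 to 2019 CPM with vehicle and 687 to 1504 CPM with 4-OHT. The lectin chaperones Calr and Canx were at -0.12 and -0.27, and the J-domain partners of BiP, Dnajb9, Dnajb11 and Dnajc3, at 0.22, -0.03 and -0.13. Manf, a protein that binds BiP, was at -0.63 and Sdf2l1, a partner of Dnajb11, at -0.57. The 10 ER genes with an ERSE or ERSE-II in the promoters shown above had a median log2 change of -0.26, and the 13 without either one of -0.58. Manf, Hyou1, Atf6 and Sec61a1, which had no promoter there, are in neither set. Most genes with an element are chaperones or co-chaperones, and the part of role in this split was not tested. The medians with and without an element were -0.16 and -0.22 in Foxa1-floxed organoids, -0.27 and -0.28 in Foxa2-floxed organoids and -0.05 and -0.37 under the Nkx2-1 hairpin. Under the scrambled hairpin the order turned, at -0.41 and -0.35.

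The other ER roles had larger median changes. The 4 disulfide isomerases had a median of -0.60 and the 4 translocon genes -0.56, with Ssr1 and Ssr3 (subunits of the translocon-associated protein complex) at -0.63 and -0.40, and Sec61b at -0.48. Ssr1 was the gene just outside the threshold (adjusted p = 0.0504 in edgeR) and its groups did not overlap, with 207 to 327 CPM with vehicle and 129 to 186 CPM with 4-OHT. In all, 4 genes had no overlap between groups, Hsp90b1, Hyou1, Pdia4 and Ssr1, each lower with 4-OHT, beside 1.93% of all genes tested that lay lower without overlap. Of the degradation genes, Sel1l (the partner of Syvn1) was at -0.86, Edem1 (a lectin that sorts misfolded glycoproteins) at -0.68 and Herpud1 at -0.54, while Syvn1 itself was at 0.11 (95% interval -0.16 to 0.38). Of the sensors and their factors, Xbp1 had the largest change of the list, -1.0 (SE 0.36, adjusted p = 0.161 in edgeR). Xbp1 had 450.0, 238, 77.8, 118 and 149 CPM with vehicle and 153, 68.0, 69.1, 134 and 75.9 CPM with 4-OHT, and it was higher with 4-OHT in replicate 4. Eif2ak3 and Atf6 were at -0.02 and -0.14.

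**Figure D3:**
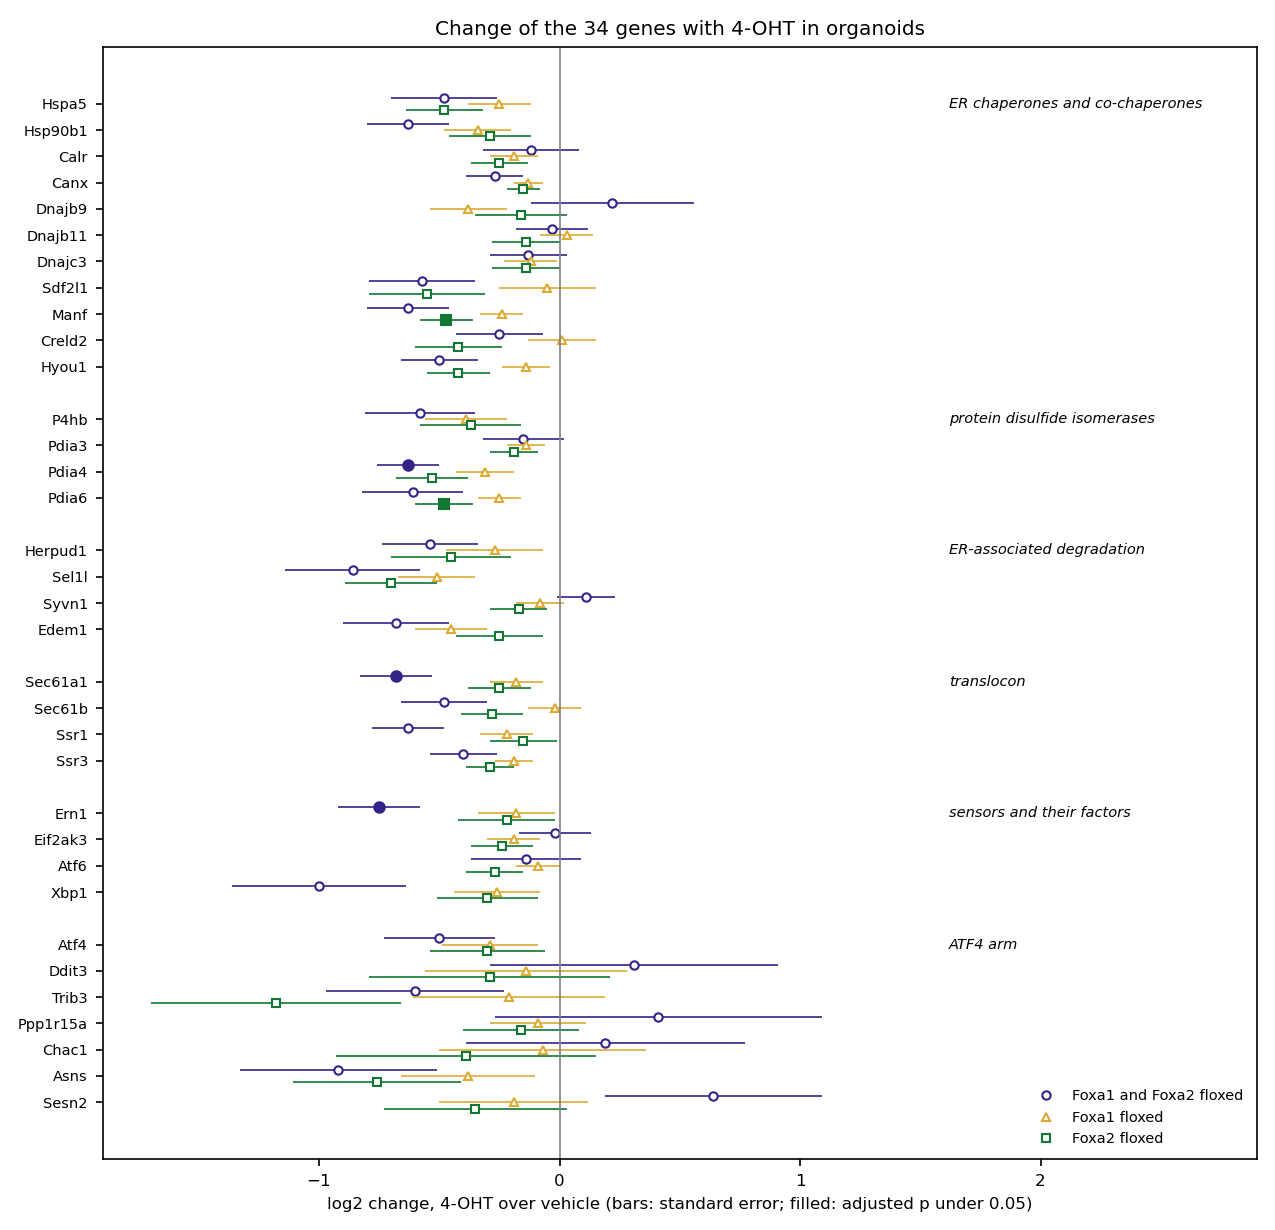
Fitted log2 change of each of the 34 genes with 4-OHT over vehicle in the 3 organoid genotypes, grouped by role, with bars of 1 standard error. Filled symbols mark the 5 calls (Pdia4, Sec61a1 and Ern1 in double-floxed, Manf and Pdia6 in Foxa2-floxed organoids), and most ER genes lie left of 0 while the double-floxed values of the ATF4 arm lie on both sides.

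None of the 7 genes of the ATF4 arm was called in double-floxed organoids in edgeR or in DESeq2, beside 3.90 and 12.4% of all genes tested. At an unadjusted p under 0.05 in edgeR 0 of 7 passed, beside 20.3% of all genes. Of the alternative settings, only no filter on low counts called a gene of the arm, Asns, with 8.01% of all genes called. The 7 genes lay on both sides of 0, 3 below and 4 above, with a median of 0.19. That median turned with the libraries used. Without replicate 4 in both groups 5 of the 7 were below 0 (median -0.43), with Ppp1r15a at -0.04 and Chac1 at -0.43, and without the 4-OHT library of replicate 4 alone 5 were below 0 (median -0.55). It was also below 0 without line 1027B (-0.12), line 1292B (-0.05), vehicle replicate 3 (-0.06), 4-OHT replicate 3 (-0.06) or 4-OHT replicate 5 (-0.09), and with the block of line and title prefix (-0.08). The median of the ER genes without replicate 4 was -0.52, with 25 of 27 below 0. Asns (asparagine synthetase) was at -0.92 (SE 0.41), Trib3 (a pseudokinase) at -0.60 (SE 0.37) and Atf4 itself at -0.50 (SE 0.23). Sesn2 (a leucine sensor) was at 0.64 (SE 0.45), Ppp1r15a (GADD34, which reverses the phosphorylation of eIF2) at 0.41 (SE 0.68), Ddit3 at 0.31 (SE 0.60) and Chac1 (which degrades glutathione) at 0.19 (SE 0.58). Their standard errors, 0.23 to 0.68, set the precision, beside 0.12 to 0.36 for the ER genes. The spread was uneven over libraries. Ppp1r15a had 206 and 188 CPM in vehicle replicates 3 and 4 and 414.5 and 346 CPM in the 4-OHT replicates 3 and 4, whereas the other 6 double-floxed libraries had 21.8 to 54.4 CPM. Sesn2 had 202 CPM in 4-OHT replicate 4, beside 40.5 to 87.2 CPM in the rest of its group.

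The ATF4 arm also differed more than the ER genes between repeat libraries of the same line and treatment. Over 18 such pairs the median absolute log2 difference was 0.64 for the ATF4 arm and 0.21 for the ER genes, beside 0.27 for 17017 genes kept. Chac1 differed most (1.20), followed by Trib3 (0.78) and Ddit3 (0.74), and Canx least (0.06). The ER genes that differed most, P4hb (0.45) and Sdf2l1 (0.43), were level with the genes of the arm that differed least, Sesn2 (0.45) and Atf4 (0.43). The 7 genes tended to differ in the same direction within a pair. All 7 were higher in the same library in 7 of 18 pairs, 6 in 5 pairs, 5 in 3 pairs and 4 in 3 pairs. In the scrambled hairpin with vehicle, for example, replicates 1 and 2 had 8.96 and 105 CPM of Ddit3, 22.6 and 121 CPM of Trib3, and 12.2 and 38.7 CPM of Chac1. Replicate 2 was also the higher for 24 of the 27 ER genes there. The repeats of lines 1027B and 1027D without a hairpin and of line 1267B differ in title prefix, and the other pairs share it. Replicates 1 and 4 of line 1027B, which correlated weakly, are among the 18 pairs. Beyond line, treatment and title prefix, the labels do not say what a repeat library shares with its partner.

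**Figure D4:**
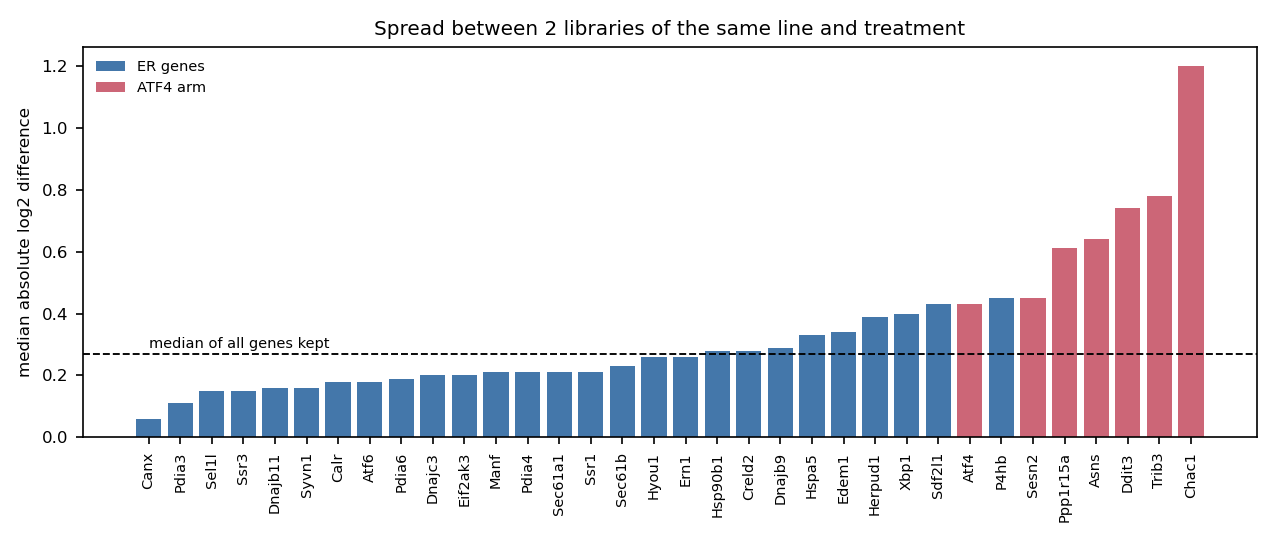
Median absolute log2 difference between the 2 libraries of a line and treatment, over 18 pairs, for each of the 34 genes, with the dashed line at the median of all genes kept (0.27). The bars of the ATF4 arm run from 0.43 to 1.20 and those of the ER genes from 0.06 to 0.45.

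In Foxa1-floxed organoids none of the 34 genes was called, in a fit where 2 of 16887 genes (0.0118%) passed in edgeR. At an unadjusted p under 0.05, 10 of 34 passed in edgeR, beside 11.4% of all genes, and DESeq2 called 1 (Canx), beside 1.45%. Of the ER genes 25 of 27 were below 0, with a median of -0.19, beside 0.01 over all genes. The ER median was -0.09 without line 1552A, with 24 of 27 below 0, and -0.11 without 4-OHT replicate 1 of that line, with 23 of 27 below 0. The summed epithelial markers had a median of 6061 CPM (4775 to 7054) with vehicle and 7030 CPM (5183 to 7668) with 4-OHT, and their part was not tested. The genes with the smallest p were Sel1l, Edem1 and Manf. Sel1l had 403, 442.5, 229, 216, 274 and 278 CPM with vehicle and 184, 252, 187, 216, 208 and 199 CPM with 4-OHT, a log2 change of -0.51 (SE 0.16, adjusted p = 0.238 in edgeR). The large differences of Sel1l were in line 1552A, replicates 1 and 2. Edem1 was at -0.45 (SE 0.15, adjusted p = 0.275) and Manf at -0.24 (SE 0.09, adjusted p = 0.308 in edgeR). All 7 genes of the ATF4 arm were below 0 (median -0.19), with standard errors of 0.20 to 0.43. Their median was 0.02 without 4-OHT replicate 1 (3 of 7 below 0), 0.04 without vehicle replicate 2 (2 of 7 below 0) and -0.05 without line 1552A, to which both belong.

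In Foxa2-floxed organoids 2 of the 34 genes fell and none rose, Manf and the disulfide isomerase Pdia6. Over the 16887 genes tested 3.43% were called in edgeR, and 1.55% were called lower, beside 5.88% of the list. Manf (chromosome 9, 106838312 to 106891979 on the minus strand) had 129.5, 149, 102 and 101 CPM with vehicle and 107, 81.3, 79.6 and 76.7 CPM with 4-OHT. Within each of the 2 lines both 4-OHT libraries lay below both vehicle libraries, and 4-OHT replicate 1 lay above the vehicle libraries of the other line. The log2 change of Manf was -0.47 (SE 0.11, 95% interval -0.70 to -0.25, adjusted p = 0.0211 in edgeR). Its region overlaps that of Rbm15b on the same strand, and the sources used here do not say how shared reads were counted. Pdia6 (chromosome 12, 17266545 to 17284770 on the plus strand) had 478, 533, 244 and 257 CPM with vehicle and 386.5, 333, 170.0 and 191 CPM with 4-OHT. Line 1267B (replicates 1 and 2) was the higher with both treatments, so the groups overlapped, and within each line both 4-OHT libraries lay below both vehicle libraries. The log2 change of Pdia6 was -0.48 (SE 0.12, adjusted p = 0.0276 in edgeR).

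All 27 ER genes were below 0 in Foxa2-floxed organoids, with a median of -0.28, beside -0.01 over all genes. The summed epithelial markers moved there without overlap, from a median of 5238 CPM (4762 to 5441) with vehicle to 6326 CPM (5858 to 6456) with 4-OHT, and their part was not tested. Of the 34 genes 13 passed at an unadjusted p under 0.05 in edgeR, beside 14.2% of all genes, and DESeq2 called 6 (Canx, Pdia6, Sel1l, Pdia4, Hyou1 and Manf), beside 5.83%. Calr, Hyou1 and Pdia4 were lower with no overlap between groups, beside 1.22% of all genes, and Pdia4 had 179 to 283.5 CPM with vehicle and 159 to 172 CPM with 4-OHT (log2 change -0.53, adjusted p = 0.0679 in edgeR). Sel1l was just outside the threshold (-0.70, adjusted p = 0.0535). The 7 genes of the ATF4 arm were all below 0, with a median of -0.35, none called, Trib3 at -1.18 (SE 0.52) and Asns at -0.76 (SE 0.35). In alternative settings Asns was called lower without 4-OHT replicate 1 (5.32% of all genes called) and without line 1267B (6.3%). Asns and Trib3 were called lower with no filter on low counts (5.61%). The other settings called no gene of the arm. Without line 1526C the median of the arm was 0.13, with 2 of 7 below 0, and without vehicle replicate 4 of that line 4 of 7 were below 0. Manf and Pdia6 each passed in 6 of 17 alternatives, with adjusted p-values of 0.00186 to 1.000 and 0.00298 to 1.000. Of the 8 cases with 1 library left out, both calls held without vehicle replicate 1 and without 4-OHT replicate 1 (3.15 and 5.32% of all genes called). Both ended in the other 6 (1.3 to 4.17% of all genes). They also ended without line 1267B (6.3%), without line 1526C (0.0929%) and with counts summed per line and treatment (0.397%). With line and the prefix number of the sample titles together as a replicate block 3 genes fell (Pdia6, Sel1l and Manf), with 5.22% of all genes called.

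The differences between genotypes were tested directly, on counts summed per line and treatment, and no gene of the 34 passed in any of the 3 tests. The tests share groups, so their results are not independent. Between double-floxed and Foxa1-floxed lines, where 1.54% of 19085 genes passed in edgeR, the smallest p-values were those of 3 translocon genes. The effect of 4-OHT on Sec61a1 was lower in double-floxed lines by a log2 difference of -0.50 (SE 0.14, 95% interval -0.82 to -0.19, adjusted p = 0.122 in edgeR), that on Ssr1 by -0.46 (SE 0.13, adjusted p = 0.123) and that on Sec61b by -0.54 (SE 0.15, adjusted p = 0.126). At an unadjusted p under 0.05, 7 of 34 passed in edgeR, a share near the 17.8% of all genes, and DESeq2 called these 3, beside 7.48% of all genes. Between double-floxed and Foxa2-floxed lines, where 0.194% of genes passed, Ssr1 had the smallest p (log2 difference -0.50, SE 0.14, adjusted p = 0.313 in edgeR), followed by Sec61a1 (-0.41, adjusted p = 0.480) and Sesn2 (1.09, adjusted p = 0.551). There 3 of 34 passed unadjusted in edgeR, beside 8.91% of all genes, and DESeq2 called Ssr1, beside 1.87%. Between Foxa1-floxed and Foxa2-floxed lines 0% of 18384 genes passed in edgeR, 0 of the 34 passed unadjusted, beside 5.83% of all genes, and DESeq2 called 0, beside 0.751%. The smallest p-values there belonged to Creld2 (0.44, 95% interval -0.05 to 0.94), Sdf2l1 (0.49, interval -0.11 to 1.10) and Hyou1 (0.28, interval -0.07 to 0.63).

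In the hairpin libraries none of the 34 genes was called with 4-OHT. Under the scrambled hairpin 4.33% of 14465 genes passed in edgeR, 5 of 34 passed unadjusted, and DESeq2 called 1 (Herpud1). Of all genes 15.2% passed unadjusted and DESeq2 called 7.55%, so neither count of the list lay above the background. Herpud1 had 120.0 and 174 CPM with vehicle and 74.2 and 64.9 CPM with 4-OHT, a log2 change of -1.08 (SE 0.31, adjusted p = 0.112 in edgeR). Xbp1 had 133 and 223.5 against 99.8 and 84.7 CPM (-0.95, adjusted p = 0.152), and Ern1 46.3 and 88.6 against 32.9 and 35.8 CPM (-0.97, adjusted p = 0.172 in edgeR). In each of the 3 genes the groups did not overlap, beside 28.6% of all genes that were lower without overlap here, and vehicle replicate 2 was the highest library. Of the 34 genes 33 were below 0, with medians of -0.40 for the ER genes and -1.13 for the ATF4 arm, and standard errors of 0.36 to 0.95 in the arm. Over all genes tested the median was 0.02, with 47.8% below 0. Without vehicle replicate 2, 23 of 34 were below 0, with medians of -0.22 for the ER genes and -0.32 for the arm. The summed epithelial markers were at 4150 and 5635 CPM with vehicle and at 6855 and 7447 CPM with 4-OHT, and their part was not tested.

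In the libraries labelled as carrying the Nkx2-1 hairpin 6.35% of genes passed with 4-OHT in edgeR, 8 of 34 passed unadjusted, and DESeq2 called 1 (Xbp1). Of all genes 24.7% passed unadjusted and DESeq2 called 12.3%, so here too neither count of the list lay above the background. Xbp1 had 231 and 284 CPM with vehicle and 147 and 111 CPM with 4-OHT (log2 change -0.99, SE 0.30, adjusted p = 0.0924 in edgeR). Sec61a1 had 309 and 421 against 246 and 201 CPM (-0.71, adjusted p = 0.124) and Sec61b 40.7 and 66.7 against 35.7 and 28.7 CPM (-0.74, adjusted p = 0.159 in edgeR). Of the ER genes 20 of 27 were below 0 (median -0.24), and all 7 genes of the ATF4 arm (median -1.15). Over all genes tested the median was 0.02, with 48.8% below 0. Without vehicle replicate 2 the ER median was -0.01, with 14 of 27 below 0, and that of the arm -0.07, with 5 of 7 below 0. Without vehicle replicate 1 the ER median was -0.63 and that of the arm -1.38, and without 4-OHT replicate 2 they were -0.51 and -0.64. Without 4-OHT replicate 1 the median of the arm was -1.96. The summed epithelial markers were at 4414 and 5008 CPM with vehicle and at 4346 and 6109 CPM with 4-OHT. The library with 11.7% mitochondrial counts, 4-OHT replicate 2, had the lowest level of the 8 hairpin libraries for 12 of the 34 genes, among them 5 of the ATF4 arm, for instance 9.98 CPM of Trib3 beside 36.3 CPM in its partner. That partner, 4-OHT replicate 1, was the lowest for 7 genes and vehicle replicate 1 for 7. The share of all genes lowest in each library was not computed. Without that partner 11 of the 34 genes were called, 10 lower and 1 higher, in a fit where 45.6% of all genes passed, so that count compares 1 library with the rest. Without replicate 2 itself 0 of the 34 were called. Its share in these values was not tested.

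Between the hairpins, no gene of the list was called with vehicle (0.235% of genes passed in edgeR), with 4-OHT (1.58%) or in the difference of the 4-OHT effects (0%). At an unadjusted p under 0.05, 0 of 34 passed in any of the 3 in edgeR, beside 7.76%, 13.9% and 5.41% of all genes, and DESeq2 called 0, beside 1.96%, 4.87% and 0.581%. With vehicle the smallest p-values were those of Ddit3 (log2 difference -1.84, SE 0.95), Herpud1 (-0.55, SE 0.31) and Xbp1 (0.53, SE 0.29), and with 4-OHT those of Sdf2l1 (-0.82, SE 0.41), Sesn2 (-1.06, SE 0.58) and Xbp1 (0.49, SE 0.30). For the difference of effects they were Ssr3 (0.87, SE 0.42), Sdf2l1 (-0.87, SE 0.57) and Sesn2 (-1.14, SE 0.81). These comparisons share the hairpin groups with those of 4-OHT above.

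Neighbouring parts of the secretory pathway were followed in 9 further lists. Of 14 ER factors of secretory epithelium, Creb3l1 (OASIS, a membrane-bound factor cleaved like Atf6) was called in the most comparisons with 4-OHT, 4 of 5. It had 114, 145, 133, 127 and 93.4 CPM in double-floxed vehicle libraries and 0.342, 0.304, 0.393, 6.17 and 3.01 CPM with 4-OHT, a log2 change of -6.05 (SE 0.91, adjusted p = 0.0123 in edgeR). In Foxa2-floxed organoids Creb3l1 fell from 66.1 to 117 CPM to 28.8 to 37.4 CPM (-1.61, SE 0.28, adjusted p = 0.00453 in edgeR). In Foxa1-floxed organoids it was not called, with 21.0 to 219 CPM with vehicle and 4.61 to 203 CPM with 4-OHT, both lowest in line 1552B. It fell under the scrambled hairpin (-7.97, adjusted p = 0.00202) and under the Nkx2-1 hairpin (-7.41, adjusted p = 0.00177 in edgeR). The 4-OHT effect on Creb3l1 was lower in double-floxed than in Foxa1-floxed lines (log2 difference -5.24, SE 0.62, adjusted p = 0.00995 in edgeR), and the difference from Foxa2-floxed lines did not pass (-4.46, adjusted p = 0.0604). With 4-OHT against vehicle, the groups of Creb3l1 overlapped in Foxa1-floxed organoids and in none of the other 4 comparisons.

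**Figure D5:**
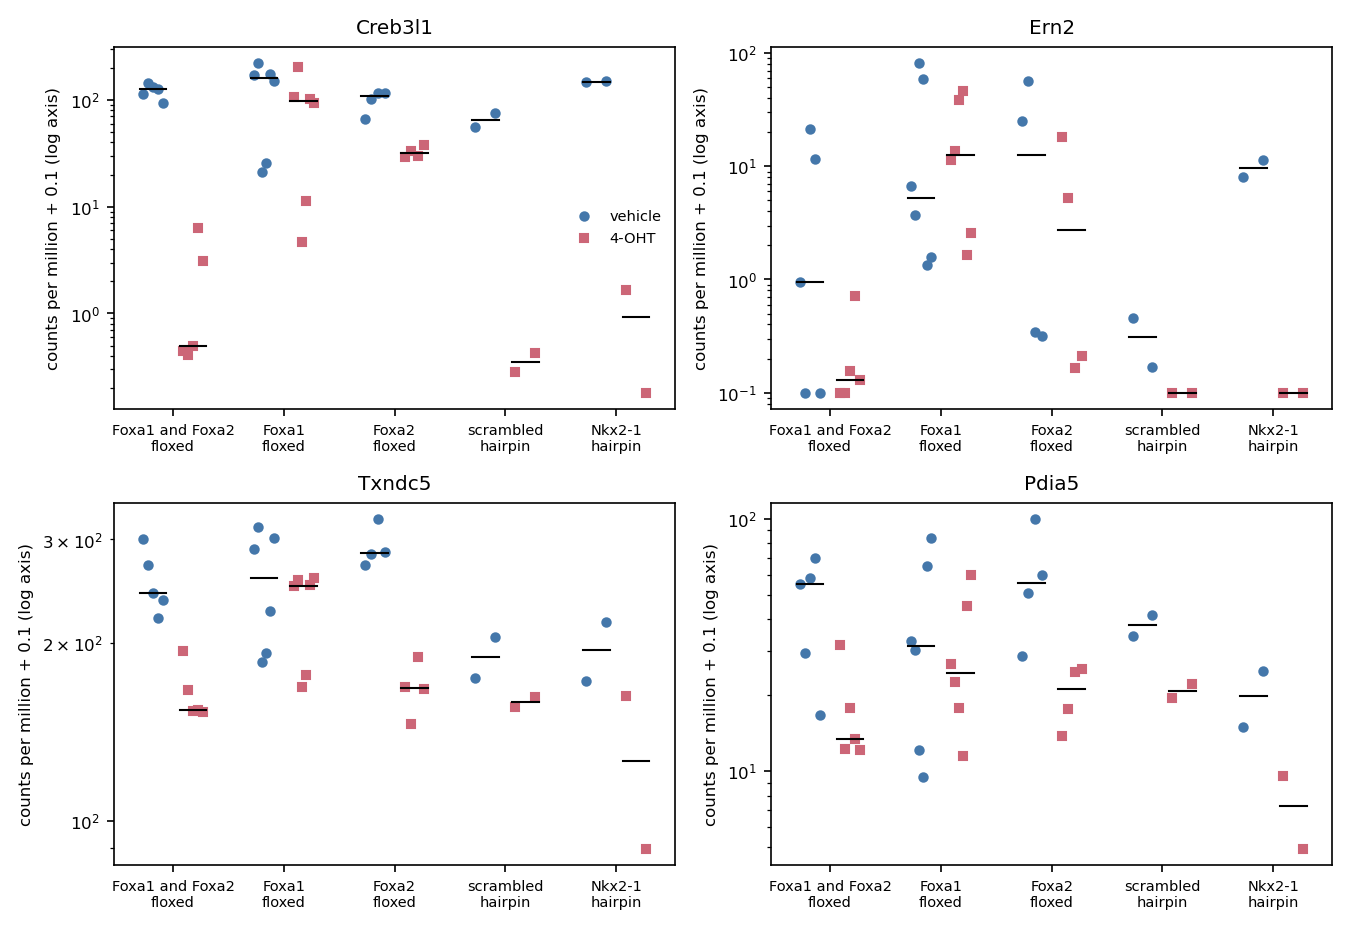
Level of 4 genes of the neighbouring lists (CPM plus 0.1, log axes), 1 point per library, with black lines at the group medians. Creb3l1 with 4-OHT lies between 0.304 and 6.17 CPM in double-floxed organoids and between 28.8 and 37.4 CPM in Foxa2-floxed organoids.

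Other ER factors were seen in some libraries only. Ern2 (IRE1 beta of mucous epithelium) had 21.1 and 11.5 CPM in double-floxed vehicle replicates 3 and 4 and at most 0.847 CPM in the other vehicle libraries, and at most 0.617 CPM with 4-OHT. The repeats of line 1027B differed, with the 11.5 CPM in vehicle replicate 4 and 0.847 CPM in vehicle replicate 1. Its 4-OHT effect was lower in double-floxed than in Foxa1-floxed lines (log2 difference -5.78, SE 1.02, adjusted p = 0.0368 in edgeR). Agr2, a disulfide isomerase of mucin-producing cells, fell in Foxa2-floxed organoids (-3.27, SE 0.67, adjusted p = 0.0115 in edgeR), from 325 and 1211 to 107 and 127 CPM in line 1267B and from 2.42 and 8.21 to 0.129 and 0.219 CPM in line 1526C. Under the Nkx2-1 hairpin 5 of the 9 genes tested in this list fell with 4-OHT, beside 3.63% of all genes called lower. With Creb3l1, the smallest p-values were those of Ern2 (7.98 and 11.2 CPM with vehicle, 0 in both libraries with 4-OHT) and Creb3l2 (175 and 149 to 70.0 and 47.9 CPM, log2 change -1.46, adjusted p = 0.0152 in edgeR).

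Of 31 other genes of ER folding and glycosylation, 2 fell in double-floxed organoids and the same 2 in Foxa2-floxed organoids, Txndc5 and Pdia5, both disulfide isomerases. Of all genes tested 1.91% and 1.55% were called lower there. Txndc5 had 301, 271, 243, 220.5 and 237 CPM with vehicle and 194, 167, 154, 154 and 153 CPM with 4-OHT in double-floxed organoids, without overlap (log2 change -0.63, SE 0.14, adjusted p = 0.0415 in edgeR). In Foxa2-floxed organoids Txndc5 had 271 to 324 against 146 to 190 CPM (-0.80, SE 0.10, adjusted p = 2.95e-04). Pdia5 was at -1.31 (SE 0.28, adjusted p = 0.0403) and -1.51 (SE 0.24, adjusted p = 0.00196 in edgeR). Fkbp11, a prolyl isomerase, had a lower 4-OHT effect in double-floxed than in Foxa1-floxed lines (log2 difference -1.08, SE 0.19, adjusted p = 0.0352 in edgeR). Of 27 genes of ER to Golgi export, Kdelr2, a receptor that returns ER chaperones from the Golgi, fell in double-floxed (-0.78, SE 0.13, adjusted p = 0.0191) and Foxa2-floxed organoids (-0.62, SE 0.12, adjusted p = 0.00808 in edgeR), and Kdelr3 fell under the Nkx2-1 hairpin (-1.84, adjusted p = 0.0447). None of 22 other genes of ER-associated degradation and none of 20 of targeting and translocation was called in any of the 11 comparisons in edgeR. In double-floxed organoids 1 and 7 of them passed unadjusted, beside 20.3% of all genes, and DESeq2 called 0 and 3, beside 12.4%.

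Of 43 other targets of Atf4, 3 fell and 1 rose in double-floxed organoids, beside 1.91% of all genes called lower and 1.99% called higher. Gpt2, an alanine transaminase, was at -1.79 (SE 0.26, adjusted p = 0.0114), Cebpg, a partner of Atf4, at -1.02 (SE 0.21, adjusted p = 0.0380) and Slc7a11, the cystine importer, at -1.52 (SE 0.33, adjusted p = 0.0415 in edgeR). Sqstm1, an autophagy receptor, rose from 218 to 535 CPM to 556 to 1420 CPM (1.15, SE 0.24, adjusted p = 0.0386 in edgeR). The list had a median of -0.43 there, with 36 of 43 genes below 0, beside a median of 0.02 and 47.8% below 0 over all genes. In Foxa2-floxed organoids 4 of the 43 fell, beside 1.55% of all genes called lower. The smallest p was that of Wars (-0.66, adjusted p = 0.0115), followed by Slc6a9 (-0.82, adjusted p = 0.0171) and Gpt2 (-1.22, adjusted p = 0.0471 in edgeR). In Foxa1-floxed organoids 0 were called, 4 passed unadjusted, beside 11.4% of all genes, and DESeq2 called 1, beside 1.45%. Under the Nkx2-1 hairpin 3 fell, Cbs, Wars and Stc2, beside 3.63% of all genes called lower. Chaperones outside the ER were mostly not called. Of 15 cytosolic heat shock genes 1 was called in any of the 11 comparisons, Hsp90aa1, which rose under the Nkx2-1 hairpin (1.42, SE 0.32, adjusted p = 0.0394 in edgeR). In double-floxed organoids the list had 11 of 15 genes above 0 (median 0.30, 3 unadjusted, 0 in DESeq2), where 47.8% of all genes were below 0. None of 11 mitochondrial chaperones and proteases and none of 12 eIF2 kinases and factors was called in any comparison in edgeR, with 1 and 3 passing unadjusted in double-floxed organoids and 0 in DESeq2. Of all genes tested there, 20.3% passed unadjusted and DESeq2 called 12.4%.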

How the data were processed

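RNA of mouse lung adenocarcinoma organoids was measured by bulk RNA-seq in 38 libraries, held in 3 tables of whole read counts per Ensembl gene, as the authors deposited them. Per the submitters' processing notes, the tools were STAR 2.7.6a, featureCounts 1.5.1 and DESeq2, with GRCm38 as the genome. The kit kept strand, per the labels' protocols, but the sources used here do not give the strand setting of the counting, so reads of overlapping genes on opposite strands may be shared. Samples were grouped by the labels for genotype, treatment and hairpin. A further allele that all lines share is not reported here. The labels do not say whether repeat libraries of a line came from separate cultures, and p-values then measure only the spread between these libraries, which may be technical.

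From the counts, each table was filtered (filterByExpr), scaled by TMM and tested with edgeR 4.0.16 (quasi-likelihood), with organoid line as a block in organoid comparisons and Benjamini-Hochberg adjustment over all genes tested, at a threshold of 0.05. All 34 genes passed the filter in every comparison. Single-floxed genotypes shared 1 fit. Differences between genotypes were tested on counts summed per line and treatment, and the 8 hairpin libraries as 4 group means. CPM are scaled by TMM within a table. Differences between repeat libraries were computed as log2 of CPM plus 0.5. Values are given in full for genes called in a comparison or, where none was, for the 3 with the smallest p, and for up to 3 called genes of each other list. The 34 genes and the other lists were chosen with earlier results of these data known. Alternatives were DESeq2 1.42.0, RLE factors, no filter, other blocks, and leaving out a library or line.

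The labels number no replicates, and the numbers here only name libraries. In double-floxed organoids line and title prefix together pair each vehicle with 1 4-OHT library. The centred values of these libraries correlated at 0.57 to 0.77 in all 5 pairs, which were used as a block of line and title prefix. Total counts per library were 18263673 to 31956057 in the double-floxed table, 18471187 to 33197038 in the single-floxed table and 13589826 to 16262459 in the hairpin table. Intervals (95%) use the degrees of freedom of the fit. Promoter sequences are those of RefSeq on GRCm38.p6, coordinates of genes those of GENCODE on GRCm38.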

Additional observations from a re-analysis of the deposited data

Results flagged for a closer look

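Levels of the 34 genes were screened for a library that stands apart from the rest of its group, in 204 groups of 4 to 6 libraries (1 gene in 1 group). Dixon's criterion singled out 17 of them, in 13 genes, and chance alone gives about 1 in 20.

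Of these, 6 were in double-floxed organoids. With vehicle, replicate 1 had 71.3 CPM of Ddit3 (the others 14.97 to 30.5) and 1615 CPM of Hsp90b1 (1035 to 1097). With 4-OHT, replicate 4 had 421.5 CPM of Canx (360 to 374), 1410 CPM of P4hb (686 to 856) and 202 CPM of Sesn2 (40.5 to 87.2), and replicate 5 had 154 CPM of Trib3 (32.2 to 65.3). Replicate 4 is the pair of libraries that correlated weakly with its labelled line.

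In Foxa1-floxed organoids, replicate 2 of line 1552A held 4 of the 5 such values. It had 164 CPM of Trib3 (35.4 to 62.3) and 113 CPM of Sesn2 (24.9 to 54.4) with vehicle, and 131 CPM of Trib3 (29.95 to 57.5) and 340 CPM of Pdia4 (189 to 240.1) with 4-OHT. The other was a low value, 52.8 CPM of Sec61b in vehicle replicate 5 (67.2 to 74.4).

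In Foxa2-floxed organoids, vehicle replicate 4 had 120 CPM of Trib3 (34 to 41.2), 72.5 CPM of Ppp1r15a (36.3 to 38.2) and 118 CPM of Edem1 (89.6 to 94.3). Vehicle replicate 2 had the low value of 41.9 CPM of Eif2ak3 (50.5 to 51.6). With 4-OHT, replicate 1 had 107 CPM of Manf (76.7 to 81.3) and replicate 2 had 98.7 CPM of Syvn1 (67.2 to 70.6). Trib3 stood apart in 4 groups and Sesn2 in 2, both of the ATF4 arm.

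The effect of 4-OHT differed between double-floxed and Foxa1-floxed lines, by edgeR's test of that difference with Benjamini-Hochberg adjustment, for 3 genes of the neighbouring lists: Creb3l1 (log2 difference -5.24), Ern2 (-5.78) and Fkbp11 (-1.08).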

How the results depend on the processing

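Counts of called genes among the 34 depended on the settings, and no value of a single gene that was called changed sign. Brackets give the share of all genes tested that was called in the same setting. In double-floxed organoids, where 3 were called, DESeq2 called 6 (12.4%) and no filter on low counts 6 (8.01%). No replicate block gave 0 (0.613%) and counts summed per line 0 (3.45%). The block of line and title prefix, which pairs the libraries, gave 5 (11.7%). Leaving out 1 library gave 0 to 1 (1.45 to 3.8%) and leaving out each of the 3 lines 0 (0 to 1.79%). Leaving out replicate 4 in both groups, an alternative chosen after seeing the data, gave 1 (3.95%). In Foxa2-floxed organoids, where 2 were called, DESeq2 gave 6 (5.83%), no filter 8 (5.61%), no replicate block 0 (0.0305%) and counts summed per line 0 (0.397%). The genotype fitted alone gave 0 (0.864%), 1 library left out 0 to 5 (1.3 to 5.32%), and no line 1526C 0 (0.0929%). Where none was called, DESeq2 gave 1 in Foxa1-floxed organoids (1.45%), 1 under the scrambled (7.55%) and 1 under the Nkx2-1 hairpin (12.3%). It gave 1 for the difference between double-floxed and Foxa2-floxed lines (1.87%) and 3 for that from Foxa1-floxed lines (7.48%). No filter gave 3 in Foxa1-floxed organoids (3.52%), 7 under the scrambled (5.48%) and 5 under the Nkx2-1 hairpin (9.8%). Between hairpins it gave 1 with vehicle (1.84%) and 1 with 4-OHT (4.22%). In the hairpin table, 1 library left out gave 0 to 11 under the Nkx2-1 hairpin, 0 to 8 between hairpins with 4-OHT and 0 to 4 for the difference of effects; the highest values all came without 4-OHT replicate 1 of the Nkx2-1 hairpin, where a lone library is assumed to vary like the other groups. The choice of block moved no other of these counts by over 1.5 times. No paired analysis was possible in the hairpin table because its labels do not tie a vehicle to a 4-OHT library.

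Over all genes, 592 were called in double-floxed organoids, beside 1892 in DESeq2, 2391 without a filter, 82 without a block and 1783 with the paired block. In Foxa2-floxed organoids 580 were called, beside 985, 1816, 5 without a block, 73 with counts summed per line and 914 with the block of line and prefix. The causes of these changes were not tested. The depth of the tables left every one of the 34 genes above the low-count filter.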
